A study of Mus musculus with 24 samples.

Results

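The comparison set 2 lung tumour cell lines of the mouse whose names begin with beta, betaD5 and betaD10, against 3 whose names begin with gamma, gammaA3, gammaD1 and gammaD12. The members were chosen by name and by having 1 array each: they are tumour lines 4, 5, 7, 10 and 11 of the series, and their 5 arrays are 5 of its 24. All 5 lines were grown out of lung tumours of transgenic mice aged 8 months that carried both c-Myc and c-Raf, and all were kept in DMEM with fetal calf serum, glutamine and antibiotics through weekly passages. The remaining 17 tumour arrays measured 6 more lines of the same origin, A2B1, A2C12, B3, cRAF_cMYC, gammaA7 and gammaB8, and the 2 control arrays hold RNA of type II cells of the alveoli, taken from healthy animals that lacked both transgenes. No untreated or transgene-free culture stands on either side of the comparison, so both transgenes are shared by beta and gamma lines. The labels used here do not say which promoter drives the transgenes, which mouse or tumour each line came from, at what passage its RNA was taken, or what beta and gamma in the names stand for, and they name gammaB8 as gammaA8 in one field. Each line is therefore read as 1 culture of 1 line.

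c-Myc is a DNA-binding regulator of transcription that raises ribosome assembly, cell growth and division. Lines grown out of separate tumours, or out of cells of one tumour, can differ in the genes they keep active and in the chromosomes they carry. Gene expression arrays read RNA alone and do not measure DNA.

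Signals were compared as log2(signal + 32), where a signal is the deposited array reading on a linear scale, so that a difference of 1 is about 2-fold for a bright gene and less than the ratio of signals for a dim one. The 5 arrays had median signals of 54.7 to 62.0 and actin 3′ to 5′ signal ratios, a measure of RNA integrity, of 1.11 to 1.26, the highest on gammaD12. The labelled lung epithelial origin was checked against marker genes fixed with the lists. The summed signal of 10 type II cell genes was 159 to 269 on the 5 arrays, against 4266 and 36938.5 on the control arrays, with 0 to 3 genes above the array median (3 in betaD10, which were Cebpa, Lpcat1 and Muc1), and surfactant protein C (Sftpc) read 6.68 to 43.8 against 787 and 11196. Club cell (4 genes, summed signal 48.5 to 80.0), lymphocyte (13 genes, 172 to 300.4) and erythroid genes (4 genes, 43.0 to 98.0) were dim too, with at most 1 gene of each list above its array's median. Type I cell genes were not low: 6 genes summed to 3272 to 4198 against 3662 and 5187 on the control arrays, with 3 to 5 above the median. Most of that sum was Cav1. Ciliated cell genes (4 genes) summed to 333 to 400 against 1285 and 2864, with 1 or 2 above the median. Myeloid genes summed to 1065 to 2264 against 51672 and 33495 on the control arrays, with 1 to 3 of 20 above the median. Endothelial genes summed to 2985 to 3890 against 1496 and 2809, with 1 or 2 of 10 above it. Most of the myeloid sum was Cd14 (734 to 1727), and most of the endothelial sum was Eng (2808 to 3737). Fibroblast (13 genes, 13602 to 31061) and smooth muscle genes (10 genes, 4726 to 9321) had 6 to 8 and 7 or 8 genes above the median, and all 5 mesothelial genes on the array were above the median. The surfactant genes of the type II list were thus low in these lines against the controls, and the lines are called by their names below. In bulk RNA, fewer cells of a type and less RNA per cell cannot be told apart.

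Counts of probe sets that differed between 2 arrays did not cleanly separate the beta from the gamma lines, and no clustering was run. Of 6485 probe sets, each brighter than its array's median on at least 2 of the 5 arrays, 193 differed at least 2-fold between betaD5 and betaD10. Pairs of 1 beta and 1 gamma array differed at 153 to 214 probe sets, with a median of 205.5 over 6 pairs. The gamma lines were nearer to each other in 2 of 3 pairs: gammaA3 differed from gammaD12 at 91 and from gammaD1 at 99 probe sets, while gammaD1 and gammaD12 differed at 183. The beta pair (193) lies within the range of the beta to gamma pairs and below their median of 205.5. Spearman rank correlations of the signals were 0.951 for the beta pair, 0.946 to 0.956 for beta to gamma pairs and 0.952 to 0.968 for gamma pairs. Repeat arrays of one and the same other line give the scale. Numbered repeats differed from each other at 15 to 326 probe sets (median 43, 5 pairs), and unnumbered arrays, the kind all 5 lines here have, differed from numbered arrays of their own line at 156 to 856 (median 285, 11 pairs). Pairs of these lines (91 to 214) lay above the median of numbered repeats (43) and below that of the unnumbered to numbered pairs (285). No line has more than 1 unnumbered array, so repeats of the same kind as these 5 arrays are not at hand.

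**Figure D1:**
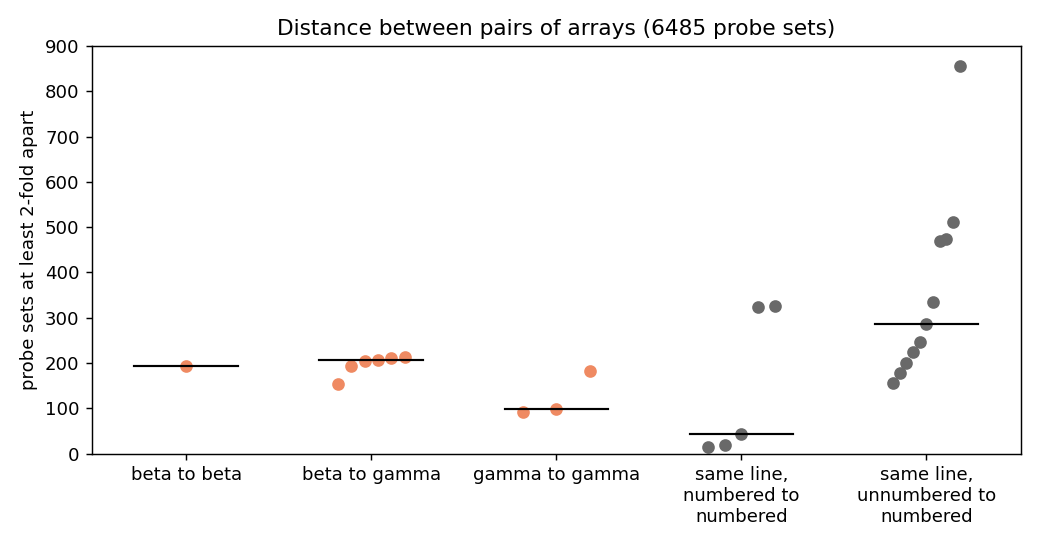
Number of probe sets, of 6485, that differ at least 2-fold between 2 arrays, by kind of pair; each point is 1 pair and the bar is the median. The pair of beta arrays (193) lies inside the range of the beta to gamma pairs (153 to 214), and pairs of 1 line with an unnumbered and a numbered array reach from 156 to 856.

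No gene passed the test of beta against gamma with the spread between the lines as error. limma on the 5 arrays called 0 of 6485 probe sets at an adjusted p under 0.05 and a 2-fold difference (0% called), with 588 at an unadjusted p under 0.05 and a smallest adjusted p of 0.0757. With the spread between repeat arrays of the tumour lines as error (22 arrays, 11 residual degrees of freedom), limma called 1 probe set, lower in the beta lines (0.0154% called), with 378 at an unadjusted p under 0.05. That probe set reads Evl, a regulator of actin filament growth at the leading edge. With the unnumbered arrays of the repeated lines left out, so that the spread came from 5 pairs of numbered arrays alone, limma called 24, 10 higher and 14 lower in the beta lines. An exact permutation test of 2 against 3 arrays cannot go below a two-sided p of 0.2 for any gene, so single genes are described below by the values of every array and by whether the groups overlap. The labels do not say whether arrays came from separate cultures, and p-values measure only the spread between these samples.

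Without regard to size, all beta signals lay above all gamma signals for 855 probe sets (13.2% of those tested) and below them for 894 (13.8%). A gap of at least 2-fold between the nearest beta and gamma arrays was left at 3 probe sets higher in beta (0.0463%) and 8 lower (0.123%). Over 4987 genes, each read by its brightest tested probe set, 1342 (26.9%) were without overlap, 13.5% higher and 13.4% lower, and 0.802% of genes differed at least 2-fold in their means. The 10 genes with the widest gap in each direction are described next.

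Fhl1, a LIM-domain protein of muscle cells encoded on the X chromosome, had the widest gap among genes higher in the beta lines. Its signals were 767 in betaD5 and 1642 in betaD10, against 78.0 in gammaA3, 66.0 in gammaD1 and 202 in gammaD12. Both beta arrays were several-fold above every gamma array, a mean of 1205 ± 619 (SD, n = 2) against 115 ± 75.2 (SD, n = 3). The difference was 3.09 ± 0.43 (log2, SE; limma adjusted p = 0.11 with the spread between lines and 0.528 with that between repeat arrays). A second Fhl1 probe set read 216 and 472 against 55.6, 74.5 and 102, also without overlap. The gamma lines outside the comparison did not share the low level: the unnumbered arrays of gammaA7 and gammaB8 read 640.3 and 819.6. High Fhl1 was therefore not restricted to lines named beta.

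Hand1, a transcription factor of heart and extraembryonic development, was dim throughout and near the floor in the gamma lines. It read 77.1 and 78.0 in betaD5 and betaD10, and 17.3, 14.8 and 20.2 in gammaA3, gammaD1 and gammaD12, a difference of 1.15 ± 0.16 (log2, SE). Crip1, a small LIM protein, read 128 and 136 against 3.23, 48.2 and 13.0. Hus1, part of the sliding clamp that signals DNA damage, read 290.4 and 237 against 118, 54.2 and 6.80. A second tested probe set of Hus1 overlapped between the groups (89.4 and 73.9 against 108, 80.0 and 102), so the gene's difference rests on 1 of its probe sets.

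Srxn1, the sulfiredoxin that restores oxidised peroxiredoxins, read 491 in betaD5 and 473 in betaD10, against 246, 121 and 190.5 in gammaA3, gammaD1 and gammaD12. The beta values were within a few percent of each other and above all gamma values, a difference of 1.28 ± 0.25 (log2, SE). Cox17, the copper chaperone of cytochrome oxidase, was the brightest gene of this group, at 3829 and 3663 against 1901, 2239 and 2109, a difference of 0.84 ± 0.17. Csf1r, the receptor of macrophage colony-stimulating factor, read 197 and 89.1 against 31.1, 42.6 and 34.0. A second tested Csf1r probe set overlapped (64.7 and 80.5 against 24.3, 80.3 and 53.8), so this difference too rests on 1 probe set. Its ligand Csf1 did not separate the groups, at 1713 and 2681 against 2246, 2179 and 2829.7.

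The remaining 3 genes higher in the beta lines were Abhd8, St3gal5 and Hdac3. Abhd8 read 369.7 and 339.8 against 183, 147 and 203, and its second probe set separated the groups too. St3gal5, the synthase of the ganglioside GM3, read 295 and 483 against 149, 147 and 176. Hdac3, a histone deacetylase of nuclear corepressor complexes, read 369 and 375 against 225, 181 and 222, the smallest gap of the 10.

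Igf1, the insulin-like growth factor that signals growth and survival through the receptor Igf1r, had the widest gap of all. Its signals were 133 in betaD5 and 27.6 in betaD10, against 1290.25 in gammaA3, 875 in gammaD1 and 659 in gammaD12. Every gamma array was several-fold above both beta arrays, and the lower of the beta values was near the floor. The difference was -3.24 ± 0.43 (log2, SE; limma adjusted p = 0.11 with the spread between lines and 0.616 with that between repeat arrays). A second, dimmer Igf1 probe set read 152 and 202 against 252, 299 and 296, a difference of -0.60 in the same direction. The gamma lines outside the comparison were the brightest of all tumour lines, at 1833 in gammaA7 and 3166 in gammaB8, while the unnumbered arrays of A2B1, A2C12, B3 and cRAF_cMYC read 23.7, 114, 266 and 136. High Igf1 was thus found in all 5 gamma lines and in none of the other 6 lines on their unnumbered arrays.

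The receptor and the binding proteins of this pathway moved less. Igf1r read 422 and 602 in betaD5 and betaD10 against 580.3, 678 and 754, with overlap, and Igfbp4, which binds the factor outside the cell, read 460.0 and 495 against 574, 593 and 812, without overlap (-0.43 on the log2 scale). Igfbp2 was set apart in betaD10 alone, at 341 against 40.5 to 56.8 in the other 4. Igfbp6 and Igfbp7 overlapped.

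Mmp13, a collagenase, read 205 in betaD5 and 14.7 in betaD10, against 669, 607 and 1086 in gammaA3, gammaD1 and gammaD12, a difference of -2.92 ± 0.60 (log2, SE). Mmp10, a stromelysin, was dim and ordered the same way, at 44.0 and 2.76 against 64.2, 54.1 and 145, while Mmp3, another stromelysin, overlapped (433 and 95.3 against 338, 148 and 148). Mcoln2, a cation channel of endosomes and lysosomes, read 35.2 and 35.3 against 323, 231 and 434, and had the smallest adjusted p of the 20 genes (-2.39 ± 0.25, log2, SE; limma adjusted p = 0.0757). The beta arrays were equal within a unit of signal and the gamma arrays were all more than 6 times as bright in signal.

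Icam1, the adhesion molecule that binds leukocyte integrins, read 57.8 and 38.5 in betaD5 and betaD10 against 360.1, 488 and 204, a difference of -2.19 ± 0.32 (log2, SE; limma adjusted p = 0.125 with the spread between lines and 0.0645 with that between repeat arrays). Phxr4 read 134 and 156 against 470.2, 456 and 632, a difference of -1.63 ± 0.20. Icam1, Mmp13 and Phxr4 all lie on chromosome 9, whose median was lower in betaD5 than in the other lines. They lie in the first of 4 stretches of 46 genes along it, where the betaD5 median was -0.19 (log2) against the other 4. The part of the chromosome in these 3 differences was not tested.

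Evl, the gene called with the spread between repeat arrays, read 16.1 in betaD5 and 39.0 in betaD10, against 149, 94.8 and 122 in gammaA3, gammaD1 and gammaD12. The difference was -1.38 (log2), with an SE of 0.18 and a limma adjusted p of 0.00628 from the spread between repeat arrays. With the spread between lines the SE was 0.23 and the limma adjusted p 0.227. A second Evl probe set, too dim to be tested, read 45.0 and 51.6 against 53.7, 57.8 and 59.5, a difference of -0.15 (log2) in the same direction. Outside the comparison Evl ranged from 5.29 in A2C12 to 111 in cRAF_cMYC on the unnumbered arrays, with 105 in both gammaA7 and gammaB8. Vcan, the matrix proteoglycan versican, read 509 and 412 against 1351, 961 and 1135. Noct, a circadian-regulated phosphatase, read 461 and 369 against 1042, 897 and 935, and Nbl1, an extracellular antagonist of bone morphogenetic proteins, read 26.4 and 23.1 against 79.3, 145 and 79.2. All 3 were without overlap, and Vcan and Noct were bright in every line.

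Mt1, a metallothionein that binds zinc and copper, read 41.5 and 50.1 in the beta lines against 174, 680.3 and 151 in gammaA3, gammaD1 and gammaD12. Its neighbour Mt2 read 99.7 and 123 against 412, 1160.29 and 151.03. Both genes were lowest in the 2 beta lines and more than 2-fold higher in gammaD1 than in any of the other 4. Of the other zinc-handling genes, Mt3 overlapped (285 and 348 against 265, 328 and 274) and so did the exporter Slc30a4 (767 and 458 against 749.9, 474 and 478), while the importer Slc39a1 was slightly lower in the beta lines (379 and 296 against 450.1, 472 and 418). On both control arrays Mt1 (5303 and 2677) and Mt2 (8420.1 and 2670) were brighter than in any of the 5 lines.

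Because Mt1 and Mt2 moved together, the bases before their start sites are printed, from RefSeq on GRCm38.p6. Mt1 lies at chr8:94178839-94179088 and Mt2 at chr8:94172368-94172617, both on the plus strand, and each window holds the 250 bases before the start used in the promoter table. The RefSeq gene record of Mt1 begins at 94178883, inside its window. Most of the Mt1 window, with its marked core, therefore lies after that start, and the bases before it are mostly not printed. Capitals mark the core of the metal response element, TGCGCNC or TGCACNC, the motif bound by the zinc-sensing factor MTF-1, searched on both strands.
Mt1: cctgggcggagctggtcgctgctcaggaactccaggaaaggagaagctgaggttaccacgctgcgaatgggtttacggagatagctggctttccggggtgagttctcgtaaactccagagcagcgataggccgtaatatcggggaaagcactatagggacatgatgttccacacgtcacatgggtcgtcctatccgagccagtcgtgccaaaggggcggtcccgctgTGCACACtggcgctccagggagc
Mt2: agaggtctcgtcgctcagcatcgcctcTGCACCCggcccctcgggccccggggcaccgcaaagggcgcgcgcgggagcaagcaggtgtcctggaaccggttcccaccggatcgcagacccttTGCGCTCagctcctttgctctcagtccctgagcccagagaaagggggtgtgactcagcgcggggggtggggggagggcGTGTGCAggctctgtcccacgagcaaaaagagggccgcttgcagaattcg
The Mt2 window holds the core at 3 places, 1 of them on the opposite strand, and the Mt1 window at 1. Because the windows lie differently to the starts of the gene records, these counts do not compare the promoters. Of 32851 RefSeq windows of this length, 21.4% hold at least 1 such core and 1.26% hold at least 3. A match of letters is a description of the window and not a measured binding site.

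**Figure D2:**
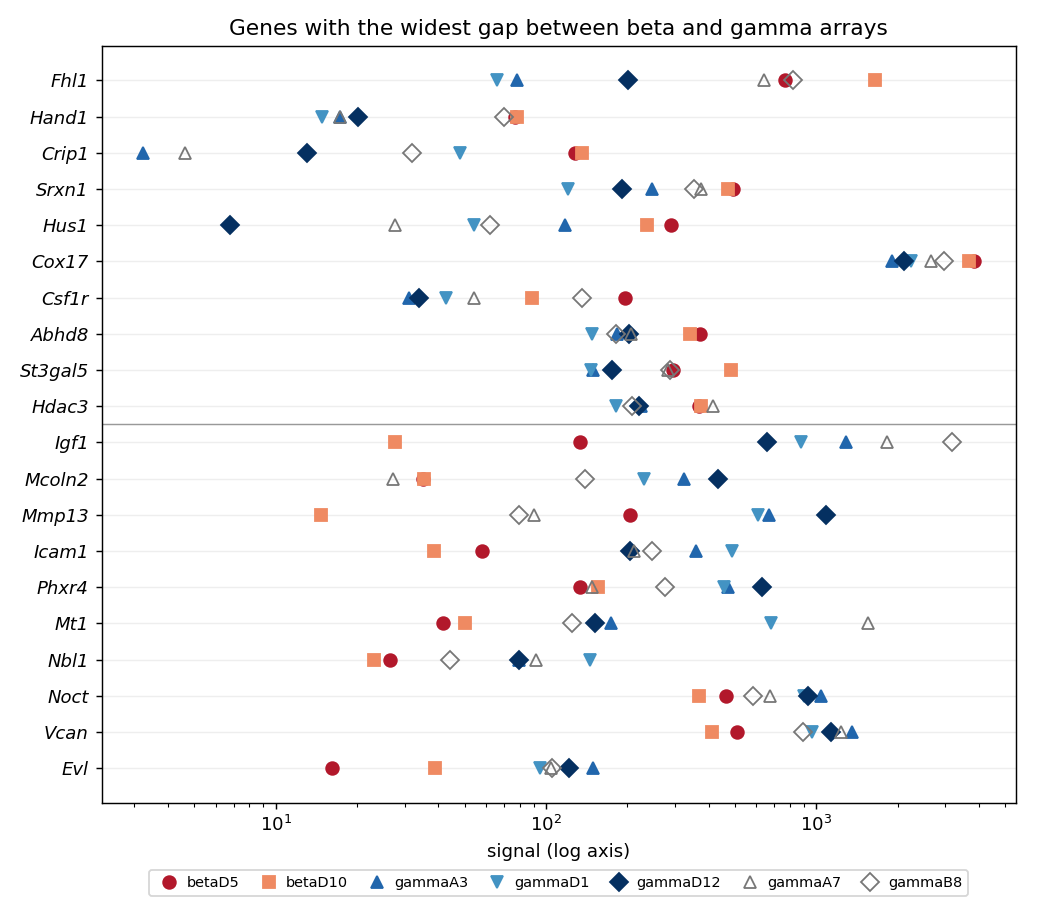
Signal (log axis) of the 20 genes with the widest gap between beta and gamma arrays, 10 higher in beta above the line and 10 lower below it; filled symbols are the 5 single arrays and open symbols the unnumbered arrays of gammaA7 and gammaB8, which took no part in the choice. Filled beta and gamma symbols never overlap because the genes were chosen so, while 1 or both open symbols lie among or beyond the beta values for 6 of the 20, among them Fhl1, Mcoln2 and Mmp13.

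gammaA7 and gammaB8 are gamma lines that the comparison did not use. Their unnumbered arrays both lay beyond the 2 beta arrays, on the gamma side, for 14 of the 20 genes (70%). The same held for 648 of the 1342 genes without overlap (48.3%) and for 1462 of all 4987 tested genes (29.3%), which take the sign of each gene's own difference. The exceptions among the 20 were Fhl1, Csf1r and Hdac3 of the genes higher in beta, and Mcoln2, Mmp13 and Phxr4 of those lower. With gammaA7 and gammaB8 added to the gamma side (2 against 5), limma called 0 probe sets by unnumbered arrays (476 at an unadjusted p under 0.05, smallest adjusted p 0.15) and 0 by line means (525 and 0.116), and 2 and 4 probe sets kept a 2-fold gap. These counts share the 2 beta arrays with the main comparison. The 20 genes were chosen for beta arrays at the extreme, so arrays of lines not named gamma can lie on that side too. Such lines were not counted, and the 70% therefore does not show a difference that goes with the gamma name.

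Of the 47 gene lists, the 6 with at least 18 tested genes were read against the background of 13.5% above and 13.4% below, and 2 of them had shares over 40% on 1 side. Of the 21 tested genes of glutathione and peroxide detoxification, which keep thiols reduced and remove peroxides and whose genes include many targets of the factor Nrf2, 9 lay above all gamma arrays in both beta lines and 0 below. None of them passed the test, and the median difference was 0.34 (log2) against 0.00075 over all tested genes. Besides Srxn1, the largest were heme oxygenase Hmox1, at 1942 and 2043 against 910.5, 1477 and 1055, and the membrane glutathione transferase Mgst1, at 584 and 769.5 against 466, 388 and 359. Both subunits of the enzyme that makes the glutathione precursor were among the 9, Gclc (699 and 585 against 484, 552 and 431) and Gclm (420 and 420 against 337, 364.5 and 279), as was thioredoxin reductase Txnrd1 (2067 and 2160.3 against 1502, 1767 and 1548). Nqo1, a quinone reductase, was highest in betaD5 but overlapped, at 704 and 280.2 against 131, 159 and 400.3, and peroxiredoxin Prdx2 did not take part (5066 and 3914 against 4656, 4988 and 5853).

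The second list was cholesterol and fatty acid synthesis, with 8 of 18 tested genes below all gamma arrays and 1 above, and a median of -0.285 (log2). None passed the test. Acly, which makes cytosolic acetyl-CoA, read 1179 and 784 against 1779, 1331 and 2341, the desaturases Fads1 and Scd2 read 453 and 582.5 against 755, 729.5 and 852, and 4019.7 and 4467 against 5565, 5534 and 5615, and Sc5d, a late enzyme of cholesterol synthesis, read 129 and 117 against 168, 214 and 223. The beta lines differed from each other in these genes too. betaD10 was the lowest of the 5 lines in 8 of 18 and the highest in 0, against 20.4% and 23.6% of all genes. betaD5 was the lowest in 4 and the highest in 4, near its shares of 22.5% and 20.6% of all genes. Fasn (603 and 564 against 708, 720.5 and 573) and the squalene epoxidase Sqle (1782 and 1611 against 1613, 1741 and 1660.2) overlapped. Of the 8 genes, 4 lie on chromosomes 9 and 19, 3 of them on 19, and the part of those chromosomes' lower medians in the list's count was not tested.

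The growth factor list held members on both sides. Vegfa, the endothelial growth factor, read 237 and 152 against 98.7, 86.3 and 61.7, without overlap (0.98 on the log2 scale), and its relative Vegfd read 167 and 561 against 125, 120.0 and 142. The receptor Fgfr1 was lower in the beta lines, at 59.0 and 45.4 against 155, 113 and 68.3. Of the chemokines, Ccl2 (4831 and 4046 against 9020.2, 6743 and 7464) and Ccl7 (1175 and 1157 against 2458, 2004 and 1271), which attract monocytes, were lower in both beta lines. The amino acid and unfolded protein stress list had 5 of 16 genes above and 0 below, against 13.5% and 13.4% of all tested genes. Among them Mthfd2, a mitochondrial folate enzyme, read 1780 and 2498 against 1306, 1408 and 1125. In no list did a gene pass the test of beta against gamma.

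Myc did not separate the groups. It read 355 in betaD5 and 247 in betaD10, against 333, 343 and 330.4, a difference of -0.16 ± 0.19 (log2, SE; limma adjusted p = 0.82). The probe set cannot tell a transgene from the mouse gene. The Myc targets and nucleolar list had 2 of 25 genes above and 5 below, and the Erk output list 2 and 0 of 11. Over all tested genes the shares were 13.5% above and 13.4% below, so these small counts are not read as a difference. Of the genes around Myc, Mycl (29.1 and 22.9 against 71.6, 45.7 and 72.2), Mxi1 (145 and 141 against 208, 213.5 and 173) and Max (360 and 371 against 511, 441 and 381.5) were lower in the beta lines without overlap.

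The differences between beta and gamma lines were unevenly spread over the chromosomes, a description chosen after the values were seen. Over 3121 genes with a mean signal above 200, grouped by their RefSeq chromosome, the genes of chromosome 19 had a median difference of -0.32 (log2): of 139 genes 77 lay below all gamma arrays in both beta lines and 0 above. Chromosome 9 had a median of -0.265, with 65 of 184 genes below and 9 above. In the other direction, chromosome 18 had a median of 0.27 (41 of 97 genes above, 2 below), chromosome 6 one of 0.24 (64 of 166 above, 7 below) and chromosome 16 one of 0.215 (41 of 107 above, 6 below). Over all 20 chromosomes 13.9% of these genes lay above and 14.9% below. Chromosomes 9 and 19 together held 10.3% of the genes and 30.5% of those below, and chromosomes 6, 16 and 18 held 11.9% of the genes and 33.6% of those above. The other medians lay between -0.16 and 0.15.

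The other 2 gamma lines shared some of these chromosome shifts and not others. Against the mean of the unnumbered arrays of A2B1, A2C12, B3 and cRAF_cMYC, the chromosome 19 median was -0.05 in betaD5 and -0.12 in betaD10, and 0.20, 0.26 and 0.17 in gammaA3, gammaD1 and gammaD12. In gammaA7 and gammaB8 it was -0.25 and -0.17, below both beta lines. On chromosome 6 the 5 medians were 0.09, 0.00085, -0.22, -0.14 and -0.18, with -0.09 in gammaA7 and 0.01 in gammaB8. On chromosome 9 they were -0.31, -0.11, 0.07, 0.09 and 0.08, with -0.17 and -0.03. On chromosome 16 they were 0.165, 0.0545, -0.106, -0.0625 and -0.144, and gammaA7 (0.036) and gammaB8 (-0.195) both lay below the beta lines. On chromosome 18 they were 0.363, 0.257, 0.126, 0.154 and -0.144, with 0.151 in gammaA7 below both beta lines and 0.29 in gammaB8 between them. The chromosome 19 pattern thus set the 3 single-array gamma lines apart from both the beta lines and the other 2 gamma lines. DNA was not measured, and copy number and regulation of expression cannot be told apart with these files.

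**Figure D3:**
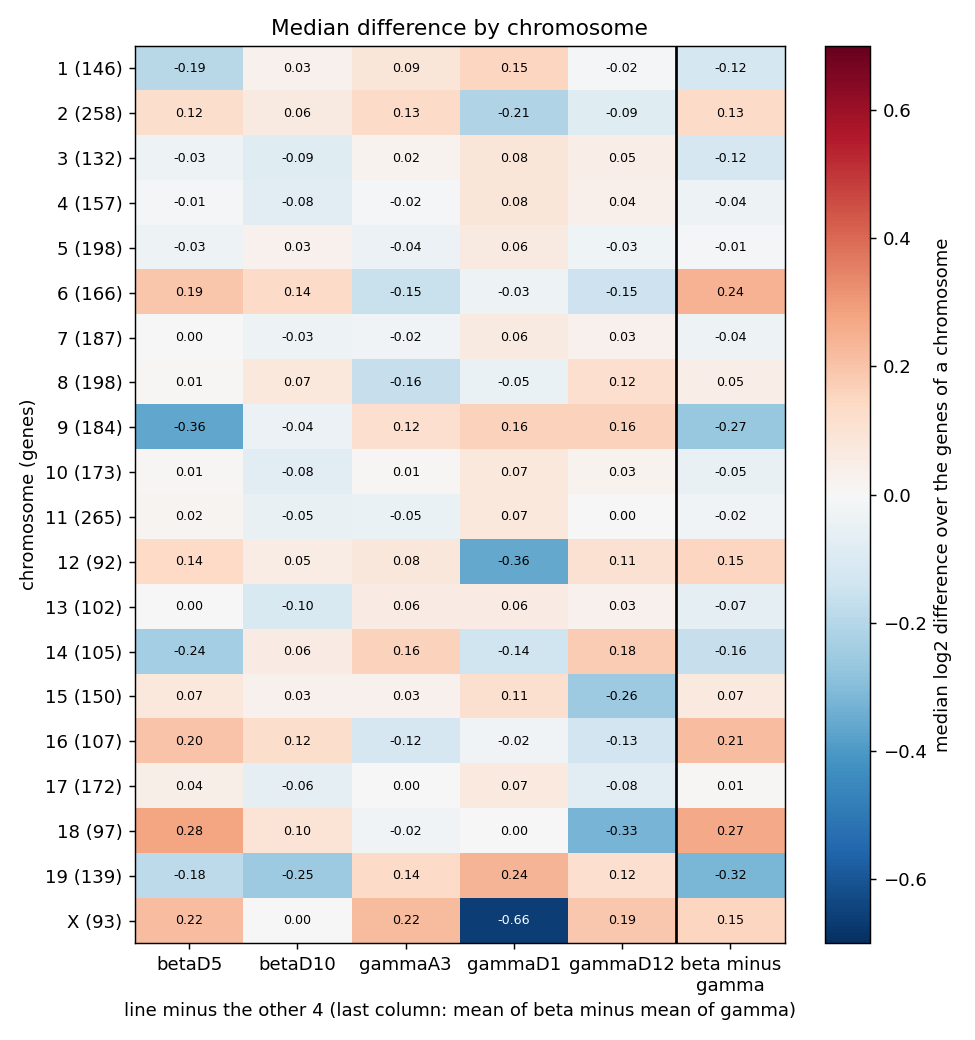
Median log2 difference over the genes of each chromosome (number of genes in brackets), for each line against the mean of the other 4 and, in the last column, for the mean of the beta against the mean of the gamma lines. The darkest cell is chromosome X in gammaD1 (-0.66), and chromosome 19 is lower in both beta lines and higher in all 3 gamma lines.

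Each line was next set against the other 4. limma with the spread between repeat arrays called 0 of 6874 probe sets in each of the 5 lines (0% called), with 291 at an unadjusted p under 0.05 for betaD5, 332 for betaD10, 129 for gammaA3, 257 for gammaD1 and 215 for gammaD12. With the spread taken from the pairs of numbered arrays alone it called 29, 42, 0, 7 and 20. The genes named for each line are those whose array lay at least 2-fold beyond all of the other 4, up to 6 in each direction. Of 5248 genes, betaD5 had 4 above (0.0762%) and 13 below (0.248%), and betaD10 had 12 above (0.229%) and 11 below (0.21%). gammaA3 had 2 above (0.0381%) and 1 below (0.0191%), gammaD1 had 7 (0.133%) and 5 (0.0953%), and gammaD12 had 6 (0.114%) in each direction. betaD10 thus had the most such genes of the 5 lines and gammaA3 the fewest.

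betaD5 combined low levels of contractile and matrix genes with high levels of division genes. Xist, the RNA that coats and silences an X chromosome, read 17.9 in betaD5 against 283 to 467 in the other 4 (-2.97 ± 0.81, log2, SE; limma adjusted p = 0.566 with the spread between repeat arrays, and 0.0244 with that between numbered arrays). On the 17 arrays of the repeated lines it read 25.5 to 320, with a median of 79.7, and 145 to 320 on the unnumbered ones among them. The Y-linked genes on the array read at most 11.4 in each of the 5 lines, and the median of the X-linked genes of betaD5 was not lower than the mean of the other 4 (0.22, log2, and 0.0653 without gammaD1). The calcium-binding protein S100a4 read 690.0 against 2231 to 3974, the chemokine Cxcl12 370 against 1176 to 3421, the lectin receptor Cd302 56.1 against 232 to 270.4, and the acute phase protein Saa3 305 against 795 to 1776. All of these were lowest in betaD5 among the 5 single-array lines by a wide gap. On unnumbered arrays, A2C12 read Cxcl12 (237), A2B1 read Cd302 (47.1) and cRAF_cMYC read Saa3 (105) lower still. The other repeated lines read these genes higher than betaD5.

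Genes of the contractile apparatus were lowest in betaD5 in 7 of the 8 tested of the smooth muscle list (22.5% of all 5248 genes were lowest there), with a median of -0.65. Tagln, the actin-binding protein transgelin, read 50.9 against 193 to 752, and calponin Cnn1 read 100.4 against 137 to 496. Fibrillar collagen and cross-linking genes were lowest in 7 of 12, with Col1a2 at 2777 against 4710 to 7744 and Col3a1 at 295 against 593 to 872. The summed signal of the 13 fibroblast markers was lowest in betaD5, 13602 against 17226 to 31061, and that of the 10 smooth muscle markers was 4726 against 5286 to 9321. These sums are not separate evidence. The smooth muscle markers are the list counted above, and the fibroblast markers include Col1a2 and Col3a1. The part of these cell types in the result was not tested. Antigen presentation genes followed in 4 of 8, among them H2-K1, a heavy chain of class I, at 145 against 211 to 468.

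Higher in betaD5 than in all others were the proteinase inhibitor Serpinb2 (338 against 68.6 to 117), the organic anion pump Abcc3 (152 against 24.4 to 47.7), the actin-capping protein Capg (593 against 170 to 250.5) and the basophil protease Mcpt8 (204 against 28.8 to 77.5), at limma adjusted p of 0.999. On unnumbered arrays, cRAF_cMYC read Serpinb2 (858) and Mcpt8 (210) higher still, and A2C12 read Abcc3 (210) and Mcpt8 (271) higher. The other repeated lines read these genes lower than betaD5. Of 25 tested cell cycle genes 12 were highest in betaD5 and 0 lowest (20.6% of all genes were highest there, median 0.27). The mitotic genes Cdc20 (4184 against 1919.6 to 3403) and Aurka (1119 against 515 to 987) and the replication gene Mcm4 (1782 against 974 to 1337) were among them. Of 25 Myc targets and nucleolar genes 11 were highest, such as the transferrin receptor Tfrc (1185 against 509 to 643), and 5 of 11 Erk output genes.

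Chromosome 9 was low in betaD5 over part of its length. The median of its 184 genes was -0.36 against the other 4 (-0.42 to -0.21 against each of them), and 147 genes (79.9%) were lower. In the order of the genes along the chromosome, 4 stretches of 46 genes each had medians of -0.19, -0.05, -0.53 and -0.49, so the larger shift began near the middle and ran to the end. Chromosome 14 had a median of -0.24, and chromosome 18 was higher, at 0.28. Against the unnumbered arrays of the 6 other lines the chromosome 9 median was -0.28. Chromosome 9 also carries Tagln, whose difference was -2.30. Tagln was chosen for lying at least 2-fold below the other lines, and the part of the chromosome in its difference was not tested.

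**Figure D4:**
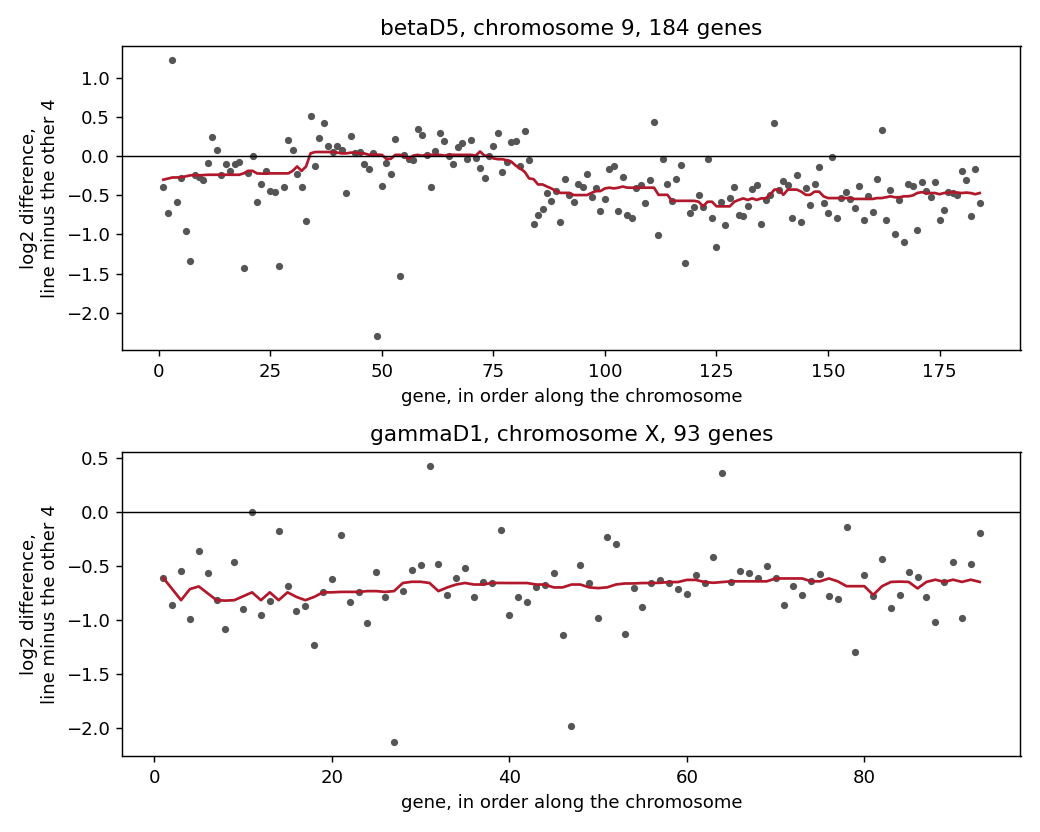
Log2 difference of single genes from the mean of the other 4 lines, in their order along the chromosome, for chromosome 9 in betaD5 (184 genes) and chromosome X in gammaD1 (93 genes); points are genes and the line is a running median over 21 genes. In betaD5 the running median drops near the middle of chromosome 9, to medians of -0.53 and -0.49 in the last 2 of 4 stretches of 46 genes, while in gammaD1 it lies below the other lines along the whole X chromosome.

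betaD10 was the opposite of betaD5 in its contractile and matrix genes. It was highest in 7 of 8 smooth muscle genes (23.6% of all genes were highest there) and lowest in 0, with a median of 0.77, and highest in 7 of 12 collagen and cross-linking genes. Col1a1 read 13437 against 6010 to 7316, and Myl9, the light chain of smooth muscle myosin, 398 against 167 to 282. The proteoglycan decorin, Dcn, read 4089 in betaD10 and 2424 in gammaD1, and 319 to 380 in the other 3. The summed fibroblast markers were highest in betaD10, 31061 against 13602 to 19915, and so were the smooth muscle markers, 9321 against 4726 to 7182. Here too the sums restate genes already counted, since the fibroblast markers include Col1a1 and Dcn. The part of these cell types in the result was not tested.

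Single genes that set betaD10 apart from the other single-array lines included Tmem45a, a membrane protein, and Igfbp2. Tmem45a read 622 against 14.0 to 67.0 (3.15 ± 0.81, log2, SE). Of the unnumbered arrays of the 6 repeated lines, betaD10 lay above 4 for either gene. A2B1 (675) and A2C12 (863) read Tmem45a higher, and B3 (514) and gammaA7 (661) read Igfbp2 higher. Sod3, the superoxide dismutase of the extracellular space, read 1031 against 219.9 to 369.7, the lymphatic growth factor Vegfd 561 against 120.0 to 167, and Armcx2, encoded on the X chromosome, 1263 against 274 to 359. Lower than in the other single-array lines were Mmp13 (14.7 against 205 to 1086), the surface glycoprotein Cd24a (1216 against 4079 to 6103) and the transcription factor Twist2 (90.8 against 349 to 547). So were the scaffold Tanc1 (15.1 against 81.2 to 150.6), the adhesion receptor Selp (59.1 against 171 to 326) and Igf1. For Selp betaD10 lay below only 2 of the 6 unnumbered arrays, with 3.28 in A2C12 and 5.50 in gammaA7. A2B1 read Cd24a (947) and Igf1 (23.7) lower than betaD10. Tanc1 had the smallest adjusted p of the line (-1.50 ± 0.24, log2, SE; limma adjusted p = 0.0711).

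Isg15, a ubiquitin-like protein induced by interferon, read 131 in betaD10, and 8.52, 5.80, 14.8 and 9.56 in betaD5, gammaA3, gammaD1 and gammaD12. The array of betaD10 alone of the 5 was above the offset of 32. Irf9, the DNA-binding subunit of the interferon-activated factor, was ordered the same way, at 225 against 60.8 to 86.8, and Ccl8 read 62.4 against 7.91 to 8.38. Not all such genes took part: of the 8 tested interferon genes 4 were highest in betaD10, where 23.6% of all genes were highest. Ifit2 was lowest there (179.5 against 226 to 248), and Irf1 (168 in betaD10) lay within the range of the others (91.3 to 203). The unnumbered arrays of A2B1 (630.3) and gammaB8 (311) read Isg15 higher still.

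The window before the start of Isg15 is printed because Isg15 and Irf9 moved together in this line. It is the 150 bases before the start, at chr4:156200819-156200968 on the minus strand of GRCm38.p6, from RefSeq, and capitals mark matches to GAAA, any 2 bases and GAAA again, the repeat in interferon-stimulated response elements, searched on both strands.
Isg15: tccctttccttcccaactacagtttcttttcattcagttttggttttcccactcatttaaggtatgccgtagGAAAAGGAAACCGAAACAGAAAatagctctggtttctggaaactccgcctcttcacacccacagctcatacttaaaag
The letters occur here at 3 overlapping places that join into 1 run. Of 32851 windows of this length, 1.59% hold at least 1 match and 0.00304% hold 3 or more.

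Among the lists, betaD10 was lowest in 13 of 25 Myc targets and nucleolar genes (20.4% of all genes were lowest there), with nucleophosmin Npm1 at 9012 against 10688 to 12077 and the helicase Ddx18 at 608 against 717 to 1018. It was lowest in 6 of 11 p53 targets, among them Mdm2 (925 against 1200.2 to 1727) and Plk2 (2658 against 3329 to 5127), and in 8 of 18 genes of cholesterol and fatty acid synthesis. It was highest in 9 of 16 genes of amino acid and unfolded protein stress, such as the pseudokinase Trib3 (152 against 36.0 to 64.7), in 10 of 22 genes of glutathione and peroxide detoxification, and in 8 of 15 lysosomal genes, with cathepsin Ctsb at 2559 against 1452 to 2172. The largest chromosome shift was that of chromosome 19 (-0.25), which was -0.04 against the 6 other lines.

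gammaA3 was the least distinct of the 5 lines. Ch25h, which makes 25-hydroxycholesterol, read 264 against 21.6 to 55.3 in the other 4 (1.98 ± 0.59, log2, SE), and the neurotrophic factor Gdnf read 192 against 61.8 to 79.9. Stard10, a lipid transfer protein, read 10.3 against 71.2 to 110.2. All 3 had a limma adjusted p of 1. It was highest at 15.2% and lowest at 17.8% of the genes, the smallest shares of the 5 lines. Of 10 cell cycle inhibitors and tumour suppressors 6 were lowest there, and of 8 xenobiotic genes 5. The only chromosome beyond 0.2 was X (0.22), which was 0.0461 without gammaD1.

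gammaD1 was set apart by its metallothioneins and by its X chromosome. Mt1 (680.3 against 41.5 to 174) and Mt2 (1160.29 against 99.7 to 412) were highest there, with differences of 2.53 ± 0.98 and 2.56 ± 0.77 (log2, SE; limma adjusted p = 1 for both with the spread between repeat arrays, and 0.00881 and 0.000704 with that between numbered arrays). The unnumbered arrays of gammaA7 (1548 for Mt1) and A2C12 (1223) were brighter still. The surface protein Thy1 read 101 against 5.39 to 21.8, Pdgfra, a platelet-derived growth factor receptor, 152 against 48.7 to 59.5, and the secreted serpin Serpinf1 217 against 1.76 to 84.1. The unnumbered array of cRAF_cMYC read Thy1 (460) and Serpinf1 (2414) higher, and that of A2C12 read Serpinf1 higher (635). gammaD1 lay above the other unnumbered arrays of the repeated lines for both genes. Ptprv and Olfr2, an olfactory receptor gene, were dim even in gammaD1 (58.8 and 70.4) and near the floor in the other 4.

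Lower in gammaD1 than in the other single-array lines were the chaperone Hspa1b (17.9 against 133 to 179.7), the keratin Krt19 (111 against 265 to 811) and the zinc finger protein Zfp574 (8.17 against 62.1 to 76.0). So were the membrane scaffold Mpp1 (239 against 768 to 1677) and Maged2 (311 against 742 to 1024). On its unnumbered array A2C12 read Mpp1 lower still (212). Mpp1 and Maged2 are encoded on the X chromosome. Genes of cholesterol and fatty acid synthesis were highest in gammaD1 in 8 of 18 (19.6% of all genes were highest there), with Scd1 at 1292 against 565 to 775 and Fdft1, squalene synthase, at 595.5 against 334 to 558.

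On the X chromosome 90 of 93 genes were lower in gammaD1 than the mean of the other 4, with a median of -0.66 and a range of -0.71 to -0.54 against each of the 4 lines. In 4 stretches along the chromosome the medians lay between -0.74 and -0.65, so the shift ran along its whole length. Against the unnumbered arrays of the 6 other lines the median was -0.52. Xist did not follow: it read 286 in gammaD1, within the range of the other gamma and beta lines that expressed it. The kinase gene Araf on the same chromosome read 117 in gammaD1 against 224 to 282. Chromosome 12 was lower too, with a median of -0.36 and 81 of 92 genes (88%) lower, in all 4 stretches (-0.45 to -0.30), and chromosome 2 at -0.21, whereas chromosome 19 was higher at 0.24.

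gammaD12 combined low levels of division genes with high levels of p53 targets. Of 25 cell cycle genes 17 were lowest there and 1 highest (18.2% of all genes were lowest there, median -0.31). The mitotic kinesin Kif20a read 1323 against 1666 to 3477, the checkpoint protein Mad2l1 945 against 1086 to 1767, and the replication genes Mcm2 and Mcm3 628 against 836 to 1176 and 749 against 1016 to 1139.6. Lamin B1, Lmnb1, read 63.3 against 187 to 391 (-1.64, log2). Its actin 3′ to 5′ ratio was the highest of the 5 lines (1.26 against 1.11 to 1.14), and the part of this in the result was not tested.

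Of 11 p53 targets 7 were highest in gammaD12 (21% of all genes were highest there) and 1 lowest. Perp, a p53 target and desmosome protein, read 326 against 2.83 to 92.7 (2.84 ± 0.58, log2, SE), and Ccng1 1535 against 707 to 1141. Mdm2 (1727 against 925 to 1695) and Cdkn1a, the cell cycle inhibitor p21 (1121 against 831 to 1105), were only marginally highest. Pkp1, another desmosome protein, read 67.3 against 3.32 to 9.73. Above the other 4 lines were also Vnn1, which hydrolyses pantetheine (2240.5 against 255 to 759), and mesothelin Msln (1000.4 against 204 to 335). So were the phosphatase Dusp1, which inactivates mitogen-activated kinases (2231 against 674 to 902), and the lipid kinase Dgka (229 against 58.7 to 85.5). On its unnumbered array A2B1 read Msln higher still (1069). Of 8 antigen presentation genes 4 were highest, with H2-D1 at 744 against 349.5 to 549 and its partner B2m at 5119 against 2534 to 4459.

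Below the other 4 lines in gammaD12 were G6pc3, a glucose phosphatase (25.6 against 125 to 284), and Tmed9 of the secretory pathway (255 against 628 to 994). So were Slfn2 (56.6 against 147 to 199), Gga1, an adaptor of the Golgi (29.5 against 91.6 to 116), and 1 of the probe sets of Hus1 (6.80 against 54.2 to 290.4). On its unnumbered array gammaA7 read Slfn2 lower still (42.0). Chromosome 18, which carries Lmnb1, had a median of -0.33, with 85 of 97 genes lower, and chromosome 15, which carries Gga1, had a median of -0.26, with 120 of 150 lower. The differences of Lmnb1 and Gga1 were -1.64 and -1.10. Both genes were chosen for lying at least 2-fold beyond the other lines, so a size beyond these medians was fixed by that choice. The part of the chromosomes in them was not tested. Over the 5 lines, 13 of 100 chromosome and line combinations had a median beyond 0.2 in size: 5 in betaD5, 4 in gammaD1, 2 in gammaD12 and 1 each in betaD10 and gammaA3.

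**Figure D5:**
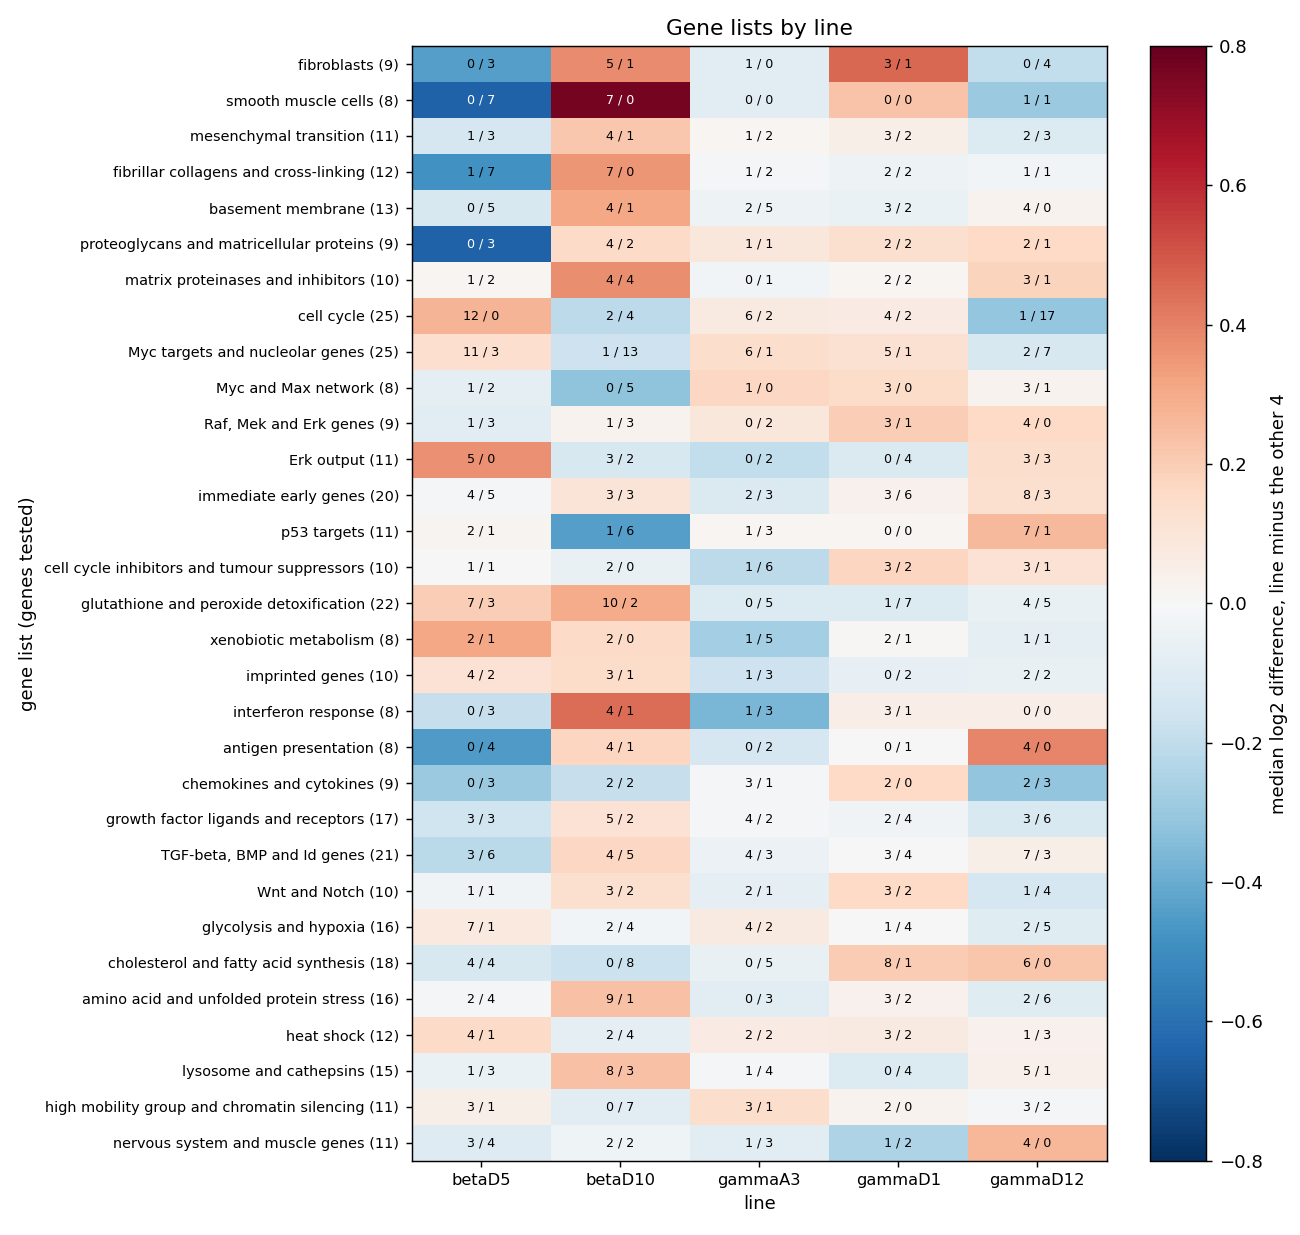
Median log2 difference of each line from the mean of the other 4, for the 31 gene lists with at least 8 tested genes (number in brackets); the numbers in a cell count the genes for which the line was the highest / the lowest of the 5. betaD5 and betaD10 have opposite colours in the smooth muscle and collagen lists, and gammaD12 is the lowest line for 17 of 25 cell cycle genes.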

How the data were processed

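Per the labels, biotin-labelled cRNA made from total RNA was read on Affymetrix mouse arrays with 12488 probe sets. The authors deposited 1 linear intensity for each probe set and array, and GCOS is the tool named per the submitters' processing notes, while its version and the background correction are not given in the sources. Trimmed means without 2% at each end were 250.1 to 250.2 on all 24 arrays, so every array had been scaled to 1 level and differences are relative, not absolute. The number of arrays limits the precision.

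Here 66 control probe sets were left out. The platform annotation, updated through RefSeq gene identifiers, gave 1 symbol to 10833 of 12422 probe sets, several to 396 and none to 1193. Differences were computed on log2(signal + 32) and tested with limma 3.58.1 in R 4.3.3 (lmFit, eBayes, Benjamini-Hochberg over all tested probe sets) on the 5 arrays, and on all 22 tumour arrays with a mean for each of 11 lines. Tested probe sets exceeded the array median on at least 2 of the 5 arrays, or 1 for single lines. Named genes were the 10 with the widest gap in each direction and, per line, up to 6 beyond the other 4 by at least 2-fold; besides these, up to 2 list members with the largest difference. Other list members were named as examples after their values were seen. Members and lists were chosen with earlier results of these data known. Chromosome medians were added after the values were seen. Scripts were tested on simulated data. Alternatives covered normalization, offset, filter, spread, replicate block and leaving out arrays.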

Additional observations from a re-analysis of the deposited data

Results flagged for a closer look

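Values over the 5 arrays were checked for an array far from the other 4, for the median signal, the actin ratio and the median level of each of 20 chromosomes; by chance about 1 in 20 such groups stands out. The actin 3′ to 5′ ratio of gammaD12 was 1.26, against 1.14 for the next. The median level of chromosome 9 genes in betaD5 was 8.85 on the log2 scale, against 9.14 for the next lowest line. The median level of chromosome 15 genes in gammaD12 was 9.14, against 9.38. The level of the X chromosome in gammaD1, 8.72 against 9.29, did not stand out by the same measure.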

How the results depend on the processing

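Calls of beta against gamma by the spread between lines, 0, became 2 with quantile normalization, 6 with arrays centred on their medians, 3 with log2(signal + 1), 2 with a floor of 32 and 1 with a trended, robust eBayes; leaving out 1 array gave 0 to 3. Calls by the spread between repeat arrays, 1, became 0 with log2(signal + 1) and with a signal above 200, 2 with log2(signal + 100), 5 with the floor, 10 with the replicate block and 24 with numbered arrays; leaving out 1 array gave 0 to 3 (0 without betaD5 or gammaA3). The 11 probe sets with a 2-fold gap became 22 with log2(signal + 1), 5 with log2(signal + 100), 21 with the floor, 2 with gammaA7 and gammaB8 added by unnumbered arrays and 4 by line means; leaving out 1 array gave 17 to 49, since fewer arrays must then be separated.

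Calls of single lines, 0 throughout, became 1 in betaD5 and 1 in betaD10 with quantile normalization, 1 in betaD10 with centring, 2, 1 and 2 in betaD5, betaD10 and gammaD1 with log2(signal + 1), 4, 1 and 1 in betaD10, gammaD1 and gammaD12 with the floor, 1 in betaD10 with no filter, 1 in gammaD12 without A2B1, 2 in betaD5 and 1 in betaD10 with the replicate block, and 29, 42, 7 and 20 in betaD5, betaD10, gammaD1 and gammaD12 with numbered arrays. Leaving out 1 array gave 0 to 1 in betaD5. Median pair counts became 382.5 (beta to gamma), 237 (gamma to gamma) and 386 (beta to beta) with log2(signal + 1), and 81, 34 and 87 with log2(signal + 100). The causes were not tested. The signs of the 20 named differences were kept in 354 of 354 alternatives, 15 of them past both thresholds. These genes were chosen for groups that do not overlap. A change of offset, floor or filter, or leaving out 1 array, could therefore not turn a sign. Under those settings the outcome was fixed by the choice of genes. Of 130 chromosome medians under alternatives chosen after seeing the data, 0 reversed and 6 moved by more than their spread. Arrays of one replicate number in the repeated lines deviated together in most pairs of lines but not in all: correlations were -0.0316 to 0.574 for unnumbered arrays (12 of 15 over 0.1), 0.00644 to 0.678 for replicate 1 (9 of 15) and 0.0925 to 0.706 for replicate 2 (8 of 10). Pairing was not assumed, since not every pair passed 0.1; the replicate block gave Xist in betaD5 a limma adjusted p of 0.0295.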
